A study of Homo sapiens with 7 samples.

Results

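The H3K4me3 library of HCT116 cells, a human colorectal carcinoma line, gave 16112 intervals in the deposited list, of 240889 intervals in the 6 lists of the series. All 16112 were kept as members, and each was assigned to genes of the GENCODE annotation on hg19 by a transcription start site (TSS) inside the interval or within 1 kb of its ends. A gene is said here to carry an interval under that rule, and the TSS is that of its canonical transcript. In the study, chromatin of 200000 cells per well was sheared with PIXUL, a 96-well ultrasound instrument, and each antibody gave 1 library from 1 well. The groups were H3K4me3, H3K4me1, H3K9Ac, H3K27me3, H3K36me3 and CTCF, all from the same line with no treatment given in the labels, and the H3K27Ac library was not analysed here. With 1 library per mark there was no replicate error and no test. Shares carry 95% Wilson intervals and medians carry the middle 50% of values, and these cover counting error and the spread over genes only. Read counts are not part of the lists, and library depth is therefore unknown.

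H3K4me3 is the trimethylated form of lysine 4 on histone H3. It is written by SET1 and MLL methyltransferase complexes, which CFP1 and related CXXC-domain proteins bring to unmethylated CpG-rich DNA, and it is bound by PHD-finger readers that include TAF3 of the general transcription factor TFIID. The mark is known as a feature of active and poised promoters, where it sits on the nucleosomes that flank the start site. Monomethylation of the same lysine is better known from enhancers, and H3K27me3 from promoters silenced by Polycomb.

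Promoters with and without the mark differ in sequence, and 5 of them are shown for this contrast. Each stretch holds 150 bases before the TSS and 30 bases from the TSS on, along the gene, with every CpG in capitals. RPS2, a ribosomal protein of the small subunit, H3C14, a replication-dependent histone H3 gene, and CDX2, a homeobox gene of the intestinal epithelium, carried an interval. RPL10L, a paralog of a ribosomal protein of the large subunit, and KRT20, a keratin of differentiated intestinal epithelium, carried none.
RPS2 (hg19 chr16:2014798-2014977, minus strand): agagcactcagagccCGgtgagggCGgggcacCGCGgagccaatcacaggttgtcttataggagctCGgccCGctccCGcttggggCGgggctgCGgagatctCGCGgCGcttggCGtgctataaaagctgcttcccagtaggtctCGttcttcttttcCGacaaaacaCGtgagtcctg
RPL10L (hg19 chr14:47120955-47121134, minus strand): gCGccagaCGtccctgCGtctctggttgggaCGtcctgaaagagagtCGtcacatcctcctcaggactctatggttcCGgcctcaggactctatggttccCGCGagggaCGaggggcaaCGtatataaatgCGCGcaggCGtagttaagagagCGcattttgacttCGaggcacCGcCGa
H3C14 (hg19 chr1:149812751-149812930, minus strand): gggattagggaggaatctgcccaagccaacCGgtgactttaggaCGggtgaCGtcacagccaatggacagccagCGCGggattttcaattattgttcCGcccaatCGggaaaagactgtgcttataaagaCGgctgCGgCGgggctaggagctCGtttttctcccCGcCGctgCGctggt
CDX2 (hg19 chr13:28543423-28543602, minus strand): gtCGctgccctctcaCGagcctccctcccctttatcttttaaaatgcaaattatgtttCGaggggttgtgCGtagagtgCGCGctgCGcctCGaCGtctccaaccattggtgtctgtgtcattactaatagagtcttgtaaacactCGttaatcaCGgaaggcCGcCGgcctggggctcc
KRT20 (hg19 chr17:39041465-39041644, minus strand): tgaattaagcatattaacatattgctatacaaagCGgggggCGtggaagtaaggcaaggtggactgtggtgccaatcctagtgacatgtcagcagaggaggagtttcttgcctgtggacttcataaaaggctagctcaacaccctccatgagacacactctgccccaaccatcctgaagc
These stretches held 16 CpGs at RPS2, 14 at H3C14 and 13 at CDX2, against 2 at KRT20. RPL10L went the other way, with 17 CpGs in a promoter whose nearest interval was 1099859 bp away. A TATA box was found at its usual distance from the TSS in RPS2, H3C14 and RPL10L.

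The mark lay mainly at protein-coding genes. Of the 16112 intervals, 10933 had a protein-coding TSS within 1 kb (67.9%, interval 67.1 to 68.6%), and these made up 79.9% of the 28.5 Mb covered. A further 1148 (7.13%) had the TSS of a long non-coding RNA (lncRNA) gene and no coding TSS, and 251 (1.56%) a pseudogene TSS and neither of these. No TSS lay within 1 kb of 3678 intervals (22.8%, and 10.6% of those past the limits of the methods given below). Of these, 1093 lay at another annotated transcript start, 984 inside a coding gene, 335 inside a non-coding gene and 1266 between genes.

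Classes differed in width and in fold enrichment, the ratio of signal over background that the peak caller gave to each interval. At coding TSSs the median width was 1968 bp (middle 50% 1549 to 2481 bp) and the median fold enrichment 21.9 (16.1 to 27.4). Intervals at lncRNA TSSs alone measured 1378 bp (875 to 1981 bp) at 10.1-fold, and those at pseudogene TSSs alone 719 bp (477 to 1233 bp) at 5.60-fold. With no TSS the median was 806 bp (484 to 1285 bp) at 4.86-fold, so the middle 50% of this class lay below that of the coding class in width. Past the limits of the methods its median width was 1329 bp. The q-value and fold enrichment limits of the study's methods (q-value below 1e-10, fold enrichment above 5) were passed by 95.6% of the intervals at coding TSSs, 70.2% at lncRNA TSSs alone, 43.8% at pseudogene TSSs alone and 36.8% with no TSS. Width rose with fold enrichment within a class: at coding TSSs the median was 1340 bp in the lowest of 5 equal groups by fold enrichment and 2264 bp in the highest. The Spearman correlation across these 10933 intervals was 0.43, and both values come from the same reads.

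Other marks accompanied the classes to different degrees. An H3K9Ac interval overlapped 99.8% of the H3K4me3 intervals at coding TSSs and 94.2% of those with no TSS, but 77.7% of those at pseudogene TSSs alone (interval 72.1 to 82.4%). H3K4me1 showed the same order, with 95.8%, 88.7% and 57.4% (51.2 to 63.3%). CTCF overlapped 45.1% of the intervals at coding TSSs and 44.4% of those with no TSS. Values at pseudogenes with a near-identical copy elsewhere in the genome are uncertain, since the reads of such copies cannot be told apart.

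Among biotypes, 12419 of 20144 protein-coding genes carried an interval, which is the background of 61.7% for every list of coding genes below (interval 61.0 to 62.3%). In 12093 of them the TSS lay inside the interval. lncRNA genes carried one at 4121 of 18918, or 21.8% (21.2 to 22.4%), and pseudogenes at 574 of 15387, or 3.73% (3.44 to 4.04%). Over all 64394 annotated genes the share was 27.5%. None of the 389 immunoglobulin and T-cell receptor segments carried an interval, which allows a share of up to 0.771%.

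**Figure D1:**
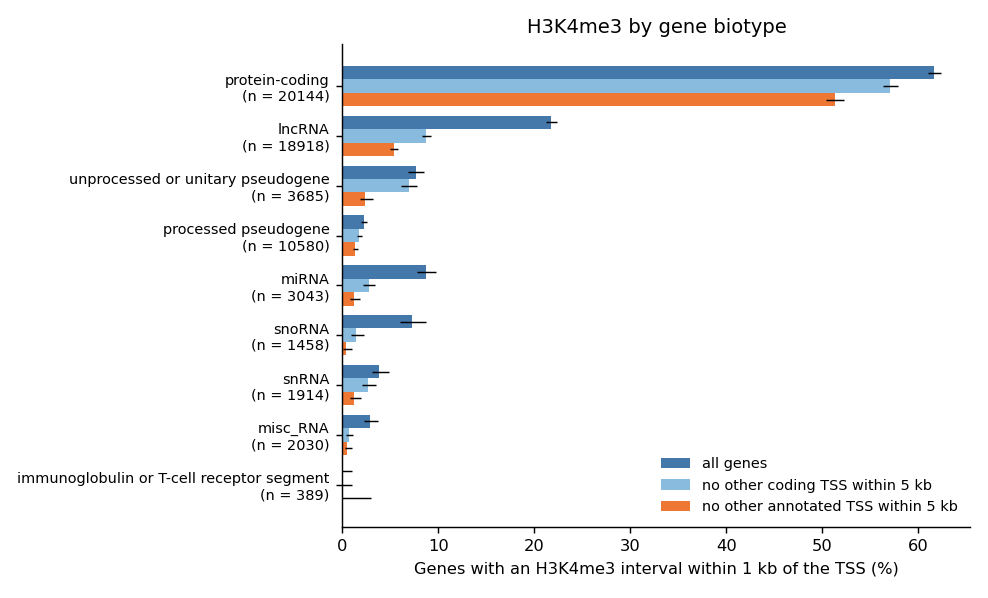
Share of genes of each biotype (y axis, n over all genes) with an H3K4me3 interval within 1 kb of the TSS (x axis, percent). It is shown for all genes, genes with no other coding TSS within 5 kb and genes with no TSS of another gene within 5 kb. The last group is labelled no other annotated TSS, but only 1 TSS per gene was used. Bars are shares and lines 95% Wilson intervals. The share of lncRNA genes falls from 21.8% to 5.38% once genes near the TSS of another gene are left out, whereas coding genes go from 61.7% to 51.3%.

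Much of the non-coding share came from genes close to a coding promoter, where 1 interval served both. Of 1869 lncRNA genes head to head with a coding TSS within 1 kb, 1576 carried an interval (84.3%). All 1574 with a marked coding partner carried one, against 2 of the 295 whose partner was unmarked. The rule of 1 kb makes such pairs share an interval, so these counts describe the arrangement and not the lncRNA. Of the lncRNA genes in other arrangements with a coding TSS within 5 kb, 1275 of 2550 carried one. With only non-coding TSSs nearby the share was 18.8%. A solitary gene is defined by no TSS of another gene within 5 kb. Since 1 TSS per gene was used, other annotated transcript starts can lie closer. At solitary lncRNA genes the share was 584 of 10858 (5.38%, interval 4.97 to 5.82%). That share was 3.47% with the limits of the methods applied to the intervals and 8.01% with a window of 5000 bp.

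miRNA genes carried an interval at 8.68% overall and 2.74% without a coding TSS within 5 kb, and snoRNA genes, most of which lie in introns of host genes, at 7.27% and 1.43%. The values for snRNA genes were 3.87% (interval 3.09 to 4.83%) and 2.69% (2.04 to 3.55%), with overlapping intervals. Pseudogenes separated by class. Transcribed unprocessed pseudogenes, duplicated copies that keep an intron structure, carried an interval at 167 of 913 (18.3%, interval 15.9 to 20.9%) and other unprocessed pseudogenes at 89 of 2520 (3.53%). Processed pseudogenes, which arise from reverse-transcribed messages and lack the parent's promoter, carried one at 211 of 10080 (2.09%, 1.83 to 2.39%).

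Among solitary genes, the highest fold enrichment of each biotype was of the same order in coding and some non-coding genes. It was 56.3 at GLI4, a zinc finger gene on chromosome 8, and 46.0 at the lncRNA gene VPS9D1-AS1, on hg19 at chr16:89777948-89779614. AFG3L1P, a transcribed unitary pseudogene, reached 35.9 over 1920 bp, and the snRNA gene RNU2-64P reached 9.86 over 619 bp. For the solitary processed pseudogene that ranked first, RPLP1P13, the interval ended 991 bp from the TSS, and for the solitary snoRNA (snoU13) 445 bp from it.

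Structure and position of the coding gene went along with the mark. Single-exon coding genes carried an interval at 291 of 1076 (interval 24.5 to 29.8%), genes with 2 to 4 exons at 49.9%, with 5 to 9 exons at 63.9% and with 10 or more exons at 72.7% (71.7 to 73.7%). Coding genes head to head with another coding TSS within 1 kb carried one at 1817 of 1885 (96.4%, 95.5 to 97.1%), against 58.1% of the others. Both genes of such a pair can share 1 interval under the rule of 1 kb, so these genes are not independent counts. Over the autosomes and the X chromosome the shares ran from 46.6% on the X chromosome and 48.0% on chromosome 21 to 69.3% on chromosomes 14 and 22. On the X chromosome the intervals at coding genes also had a lower median fold enrichment, 12.5 against 22.4 on the autosomes, and a median width of 1706 bp against 2040 bp. Copy number of the chromosomes was not analysed here.

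The assignment was close to all or none. Beside the 12093 coding TSSs inside an interval, 228 lay up to 500 bp outside and 98 between 500 and 1000 bp outside, and 168 lay just past the limit, up to 2000 bp away. For 5741 coding TSSs the nearest interval was over 20000 bp away. Of the 7725 coding genes without an interval at the canonical TSS, 605 (7.83%) had one at another annotated start of the same gene.

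CpG content, which the rule did not use, ordered coding promoters from almost none to almost all. Promoters were read from 250 bp before to 50 bp after the TSS and put into 10 equal groups by the ratio of observed to expected CpG. The share with an interval was 3.23% in the lowest group (interval 2.54 to 4.09%), 9.38% in the second, 24.3% in the third and 61.6% in the fourth. In the lowest group it was 1.79% past the limits of the methods and 10.3% with a window of 5000 bp. It reached 78.6% in the fifth and 91.1% in the highest (89.8 to 92.3%). Where an interval was present, its median width went from 1454 bp in the lowest group to 2264 bp in the highest, and its median fold enrichment from 8.13 to 24.9. The median ratio was 0.87 in promoters with an interval and 0.32 in those without.

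**Figure D2:**
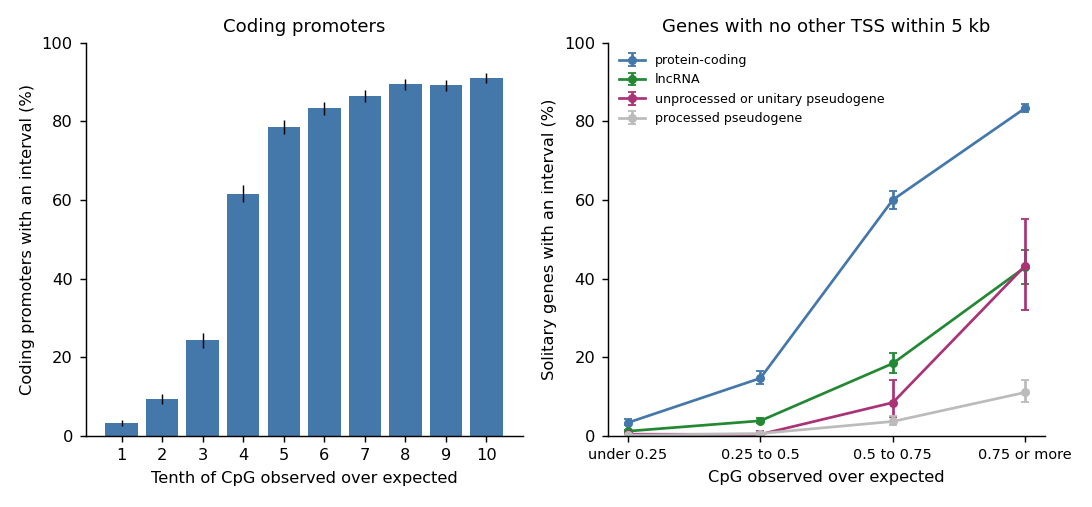
Left, share of coding promoters with an H3K4me3 interval (y axis, percent) in 10 equal groups by observed over expected CpG (x axis, 10 is the highest). Right, the same share for genes with no TSS of another gene within 5 kb in 4 ranges of observed over expected CpG, by biotype. Bars, points and lines give shares and 95% Wilson intervals. At a ratio of 0.75 or more the shares are 83.4% for coding and 42.9% for lncRNA genes.

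At the same CpG content, solitary genes of different biotypes still differed. At a ratio of 0.75 or more, 4197 of 5034 solitary coding genes carried an interval (83.4%, interval 82.3 to 84.4%) and 206 of 480 solitary lncRNA genes did (42.9%, 38.6 to 47.4%). Unprocessed or unitary pseudogenes had 29 of 67 (43.3%, 32.1 to 55.2%) and processed pseudogenes 51 of 462 (interval 8.50 to 14.2%). Between 0.5 and 0.75 the shares were 60.0% for coding and 18.4% for lncRNA genes. Few lncRNA promoters reached the top range, 4.42% of the solitary ones against 45.5% of the solitary coding ones. In solitary genes with an interval at that ratio the median fold enrichment was 22.3 at coding and 11.8 at lncRNA TSSs.

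A CpG-rich promoter without the mark was uncommon but not rare: 1359 of the 10742 coding promoters with a ratio of 0.75 or more carried no interval. An H3K9Ac interval lay within 1 kb of 4.71% of these 1359 TSSs, against 99.9% of the 9383 marked ones. H3K4me1 was listed at 9.79% against 92.0%, and CTCF at 7.36% against 45.2%. H3K27me3 went the other way, with 16.0% (interval 14.1 to 18.0%) against 4.28% (3.89 to 4.71%). Among promoters under 0.75 the H3K27me3 shares were 18.6% without and 4.48% with an H3K4me3 interval. All deposited H3K27me3 intervals were used, of which 2.81% passed the limits that the methods set for that mark.

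Short sequence words were counted in the same promoter window, on both strands except for the TATA box, and a match is a description and not a binding site. The GC box GGGCGG was found in 78.1% of the promoters with an interval and 33.5% of those without, and in 61.0% of all. Among the 5 highest of the 10 CpG groups the shares were 82.0% and 79.6%, and among the 3 lowest they were 334 of 743 with and 887 of 5300 without an interval. CCGGAAG, a core of ETS factor sites, was found in 20.5% and 3.66%, and in 21.9% and 7.71% within the same 5 groups. AAGATGGC, a core of YY1 sites, was found in 5.87% and 1.04%, and GCATGCGC, the core of NRF1 sites, in 6.00% and 1.48%. In the 5 highest groups these were 6.19% and 1.07% for YY1 and 7.06% and 3.28% for NRF1. In the 3 lowest groups the shares with and without an interval had overlapping counting intervals, 0.942% and 0.981% for YY1 and 0.673% and 0.642% for NRF1. In the other direction, TATAAA between 45 and 15 bp before the TSS was found in 1.70% of the promoters with an interval and 7.51% of those without, and in 3.93% of all. It was 4.31% and 9.08% in the 3 lowest CpG groups and 1.48% and 3.94% in the 5 highest. The 211 TATA promoters that did carry an interval had a median width of 2285 bp, against 2029 bp for all coding genes with an interval. With all CpG groups pooled, CCAAT was about as frequent in both, at 4476 of the 12419 promoters with an interval and 35.7% of the others. In the 5 highest groups its shares were 34.2% with (interval 33.3 to 35.2%) and 27.6% without (25.2 to 30.2%). In the 3 lowest they were 38.4% and 37.7%.

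The intervals were asymmetric around the TSS. At 5535 solitary coding TSSs inside an interval, the median reach was 620 bp upstream (middle 50% 403 to 895 bp) and 1182 bp downstream (944 to 1441 bp) along the gene. The downstream reach was the longer at 4755 of them (85.9%, interval 85.0 to 86.8%), by a median of 526 bp over all 5535. It was also the steadier side, since its middle 50% spanned a smaller part of its median. At 1 kb from solitary coding TSSs that carry an interval, 69.2% were covered downstream and 18.7% upstream.

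**Figure D3:**
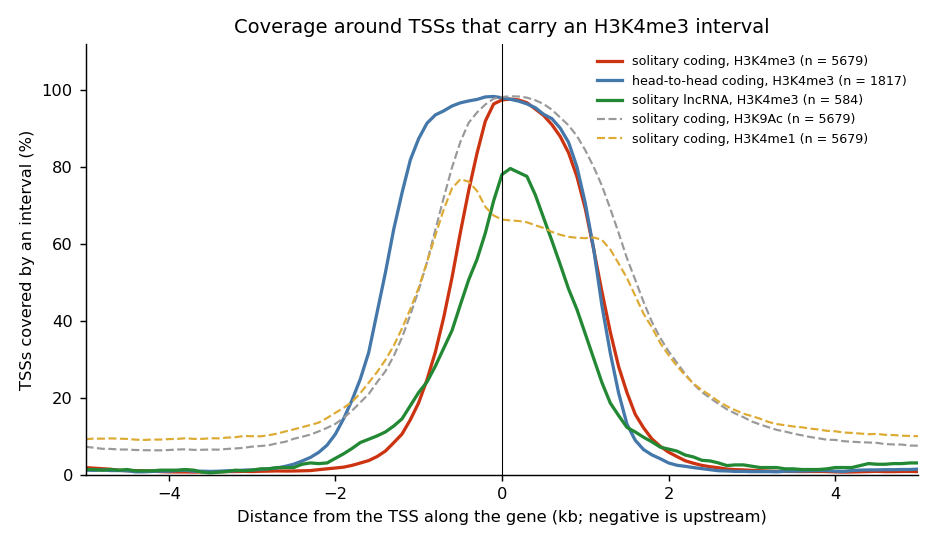
Share of TSSs covered by an interval (y axis, percent) at each distance along the gene (x axis, kb, negative is upstream), in steps of 100 bp, for TSSs with an H3K4me3 interval within 1 kb. H3K4me3 at solitary coding TSSs covers 18.7% at 1 kb upstream and 69.2% at 1 kb downstream, H3K4me3 at head-to-head coding TSSs is wide on both sides, and H3K4me1 at the same solitary coding TSSs falls from 76.8% at 500 bp upstream to 66.4% at the TSS and 61.5% at 1 kb downstream.

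The shape varied among genes. With rising fold enrichment the downstream reach grew from a median of 766 bp in the lowest of 5 equal groups to 1390 bp in the highest, the upstream reach from 483 to 674 bp, and the share with the longer reach downstream from 72.5% to 93.0%. CpG counts in the 1500 bp on each side went along with the same measure. In the group of 5 with the most CpG upstream relative to downstream, the reaches were 866 bp upstream and 1070 bp downstream and 64.4% were longer downstream. In the opposite group they were 526 and 1393 bp and 95.2% were. Across the 5535 TSSs the Spearman correlation of the CpG difference with the difference in reach was 0.44, and genes are not independent replicates. By the length of the first exon the downstream reach was 1120 bp in the group of 4 with the shortest first exons and 1302 bp in that with the longest, and at the 5425 TSSs of genes with more than 1 exon 97.2% of the intervals ended past exon 1.

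**Figure D4:**
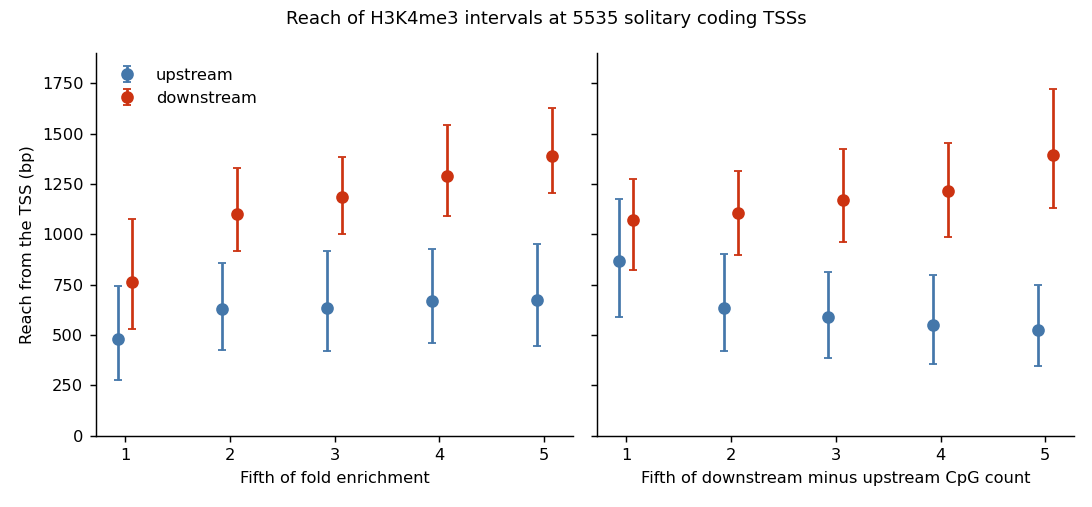
Median reach of H3K4me3 intervals upstream and downstream of 5535 solitary coding TSSs (y axis, bp; lines span the middle 50%) in 5 equal groups by fold enrichment (left) and by the CpG count downstream minus upstream (right). Downstream medians rise from 766 to 1390 bp with fold enrichment, and with the CpG difference the upstream median falls from 866 to 526 bp while the downstream one rises from 1070 to 1393 bp.

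Other arrangements differed from solitary coding genes. At 1781 head-to-head coding TSSs the reach was 1419 bp upstream, over the partner gene, and 1162 bp downstream, which is close to the 1182 bp of solitary genes, and 480 of 1781 were longer downstream. Each of the pair counts the partner's side as upstream. At 456 solitary lncRNA TSSs the reaches were 500 and 806 bp and 66.7% were longer downstream (interval 62.2 to 70.8%). H3K9Ac at 5507 of the same coding TSSs reached 978 bp upstream and 1618 bp downstream, with 78.3% longer downstream against 85.9% for H3K4me3 there. H3K4me1 at the 3694 TSSs inside intervals of both marks reached 980 bp upstream and 1490 bp downstream. These differences between libraries have no replicate error.

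At solitary coding TSSs the longest reaches exceeded the median several times over. Downstream they were 5771 bp at HMGA2, a chromatin protein of embryonic and tumour cells, 5554 bp at LTBP4, a TGF-beta binding protein of the matrix, 5309 bp at AXIN2, a target and inhibitor of Wnt signalling, 5192 bp at HDGF and 4794 bp at DNMBP. The AXIN2 interval (hg19, chr17:63552457-63558208) reached 442 bp upstream only. Upstream they were 5419 bp at PLEC, which encodes the cytoskeletal linker plectin, 4971 bp at CCND1, which encodes cyclin D1, 4781 bp at ALOXE3, 4767 bp at SSBP4 and 4153 bp at SPRY4, an inhibitor of receptor tyrosine kinase signalling. The fold enrichment of these 10 intervals ran from 7.25 at ALOXE3 to 32.9 at AXIN2. Other annotated starts of the same gene can lie inside such an interval.

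Gene lists of core cell functions were marked almost throughout. All members carried an interval among 79 mitochondrial ribosomal proteins, 38 complex I subunits of the respiratory chain, 37 aminoacyl-tRNA synthetases, 33 RNA polymerase subunits and 28 Mediator subunits. The same held for 22 MCM, GINS and DNA polymerase subunits of the replication machinery, 11 exosome subunits and 8 chaperonin subunits. Near-complete lists were the spliceosomal proteins (38 of 39), cytoplasmic ribosomal proteins (81 of 85), ATP synthase subunits (18 of 19), proteasome subunits (45 of 48) and translation initiation factors (52 of 56), each against the background of 61.7%.

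**Figure D5:**
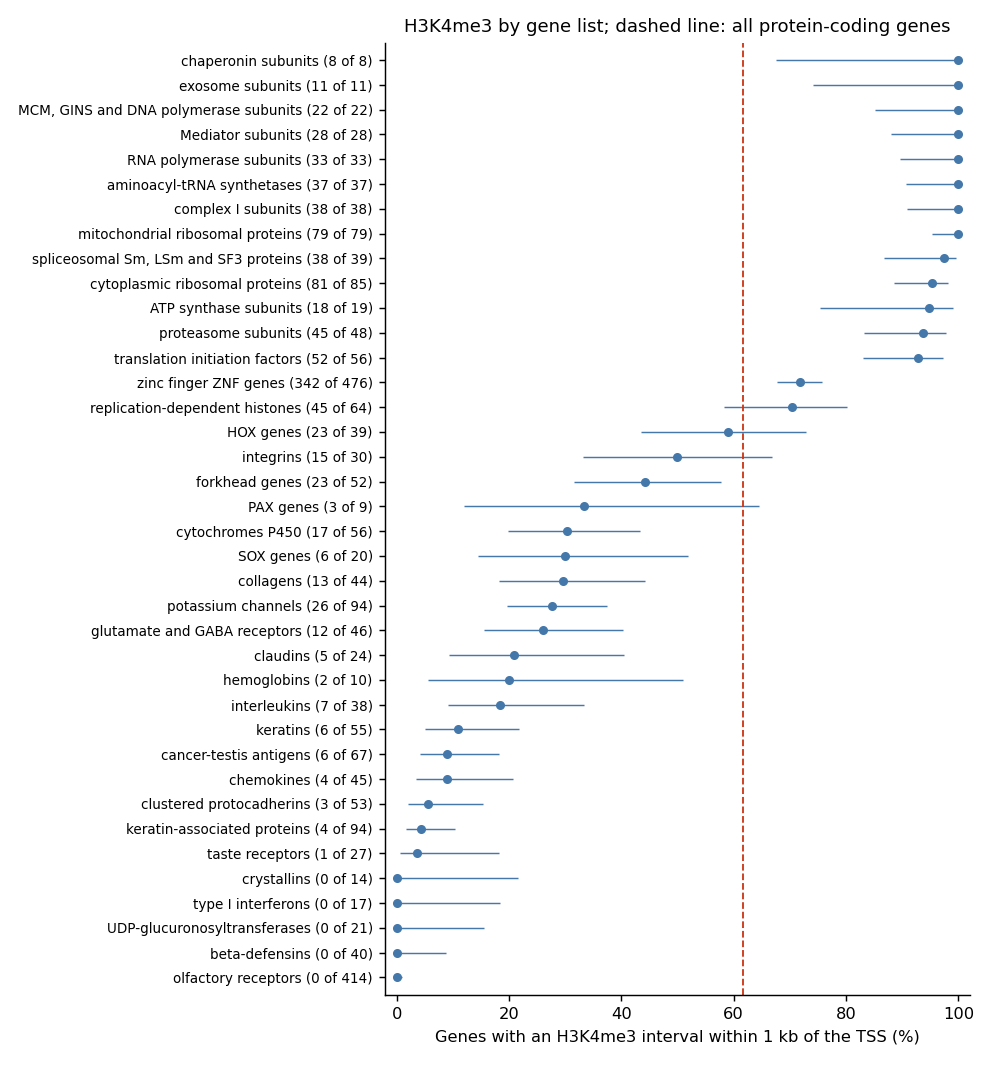
Share of the members of 38 gene lists (y axis, with the count) that carry an H3K4me3 interval within 1 kb of the TSS (x axis, percent). Points are shares, lines 95% Wilson intervals, and the dashed line is the 61.7% of all protein-coding genes; lists of core functions lie at 92.9 to 100% and olfactory receptors, interferons, beta-defensins, UDP-glucuronosyltransferases and crystallins at 0.

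The members missing from these lists were mostly relatives of the core genes that are known for use in particular tissues. RPL10L, RPL3L, RPL39L and RPS4Y2 were the ribosomal protein genes without an interval. The proteasome genes were PSMA8 and PSMB11, the testis and thymus subunits, and PSMB8, the interferon-induced immunoproteasome subunit, whose TSS lay 4950 bp from the nearest interval. Of the initiation factor list, which was taken by symbol and includes regulators, EIF4E1B, EIF5AL1, EIF2S3B and EIF4EBP3 had none, and of the spliceosomal list SNRPN, an imprinted gene. PSMA8 and RPL10L had CpG ratios of 0.92 and 0.89, whereas PSMB11 and RPL3L had 0.17 and 0.27.

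Within the core lists, cytoplasmic ribosomal proteins had wide intervals. Their median was 2777 bp, and 75 of 81 were wider than the 2029 bp median of all coding genes with an interval, with 60 of 81 above its fold enrichment of 22.1. Chaperonin subunits had a median of 3063 bp over 8 genes and translation initiation factors 2528 bp. Mediator subunits, at 1984 bp, and the replication list, at 1890 bp, were at or under the median of all. The highest ribosomal fold enrichment was 50.8 at RPL8. The widest interval, 7446 bp at RPS2 (hg19, chr16:2009188-2016633), also held the TSS of NDUFB10, a complex I subunit, which it covered as that list's widest. At 21 solitary ribosomal protein TSSs the reach was 686 bp upstream and 1680 bp downstream, and it was longer downstream at 21 of 21.

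Replication-dependent histone genes, which are transcribed in S phase from clusters and end in a stem-loop without a poly(A) tail, had intervals of low fold enrichment that often held several of them. An interval was carried by 45 of 64 (70.3%, interval 58.2 to 80.1%), a range that holds the background of 61.7%. The median width was 3258 bp and the median fold enrichment 12.8, each counted per gene, and 0 of 45 exceeded the 22.1-fold of all coding genes. These 45 genes shared 27 intervals. The 10 H4 carriers had a median width of 1620 bp, below the 2029 bp of all coding genes with an interval. By chromosome, 12 of the 12 listed genes on chromosome 1 carried an interval, and they shared 7 intervals. On chromosome 6 it was 32 of the 51 (62.7%, 49.0 to 74.7%), near the 63.5% of all coding genes there. The share of all coding genes on chromosome 1 was 60.2%. Linker histone H1 genes carried an interval at 2 of 6, H2A genes at 13 of 16, H2B at 11 of 16, H3 at 9 of 13 and H4 at 10 of 13. The highest value was 21.9 at H3C14 and the widest interval 6035 bp at H2BC17. Values at near-identical histone copies are uncertain for the same reason as at pseudogenes.

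Zinc finger genes named ZNF, most of which encode KRAB-domain repressors in tandem clusters, carried an interval at 342 of 476 (71.8%, interval 67.6 to 75.7%). On chromosome 19, which holds the largest clusters, the share was 145 of 240 (60.4%, 54.1 to 66.4%) and elsewhere 197 of 236 (83.5%, 78.2 to 87.7%). Over all coding genes the share was 60.3% on chromosome 19 and 61.7% in total, so the ZNF genes of chromosome 19 lay near both. Intervals at ZNF genes were narrow, with a median of 1520 bp on chromosome 19 and 1932 bp elsewhere. The widest was at ZNF503, 10239 bp, a developmental regulator. The solitary ZNF genes reached 448 bp upstream and 1061 bp downstream.

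Developmental transcription factors were marked in part. HOX genes carried an interval at 23 of 39, near the background of 61.7%. By cluster the counts were 9 of 11 in HOXA (52.3 to 94.9%) and 7 of 10 in HOXB (39.7 to 89.2%). In HOXC they were 4 of 9 (18.9 to 73.3%) and in HOXD 3 of 9 (12.1 to 64.6%). The counting intervals of the 4 clusters overlapped, and each held the background. The 23 carriers shared 20 intervals, and the 9 of HOXA shared 7. Median widths, counted per gene, were 2045 bp in HOXA, 4032 bp in HOXB, 1297 bp in HOXC and 570 bp in HOXD. The interval at HOXA10 was the widest at any coding TSS, 14244 bp on hg19 at chr7:27200147-27214390, and extended 13792 bp downstream of the TSS. HOXA10 lies on the minus strand and ends at 27210224, so much of this stretch lay past the gene. HOXB9 had the highest fold enrichment of the family, 33.9.

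Forkhead genes carried an interval at 23 of 52, SOX genes at 6 of 20 and PAX genes at 3 of 9. SOX9, known as a factor of intestinal crypts, had 30.6-fold over 2736 bp, and SOX12 had the widest SOX interval, 4577 bp. Among forkhead genes FOXP4 had the highest fold enrichment, 37.3, and FOXC1, a mesenchymal regulator, the widest interval, 5698 bp. Of the CpG-rich members, with a ratio of 0.75 or more, 19 of 29 forkhead genes, 16 of 24 HOX genes, 2 of 6 SOX genes and 1 of 4 PAX genes were marked, against 9383 of 10742 among all coding genes.

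Genes of adhesion and epithelial structure were divided by member. The genes with integrin symbols carried an interval at 15 of 30, and the integrin chains among them, without the binding and related proteins ITGB1BP1, ITGB3BP, ITGB1BP2 and ITGBL1, at 13 of 26, with the highest fold enrichment at ITGB1, the common beta chain (39.2), and the widest interval at ITGA3 (3808 bp), a laminin receptor chain of epithelia. Claudins, the tight junction strands, carried one at 5 of 24, and CLDN7 had both the highest fold enrichment (29.2) and the widest interval (4578 bp). Keratins carried one at 6 of 55, among them KRT19 (28.7-fold, 2788 bp), KRT18 (24.4-fold, 2162 bp) and KRT8 (21.8-fold, 2409 bp), the keratins of simple epithelia, and KRT222 (7.38-fold), whose TSS lay 36 bp from that of another gene. Clustered protocadherins, whose alternative first exons are known to be silenced by DNA methylation, carried one at 3 of 53 (PCDHAC2, PCDHGA10 and PCDHAC1). The TSS of PCDHAC2 lay 14 bp from that of another gene.

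Several further gene families were bare or nearly so. None of 414 olfactory receptor genes carried an interval, which allows a share of up to 0.725%, and none of 40 beta-defensins, 21 UDP-glucuronosyltransferases, 17 type I interferons and 14 crystallins. With so few members a count of 0 allows shares of up to 14.3% for UDP-glucuronosyltransferases and 21.4% for crystallins. These families have CpG-poor promoters, with a median ratio of 0.12 in olfactory receptors and 0.16 in beta-defensins against 0.77 in all coding genes. An H3K27me3 interval lay within 1 kb of 156 of the 414 olfactory receptor TSSs (37.7%) and of 23 of the 40 beta-defensin TSSs, against 18.1% of all coding TSSs without H3K4me3. It lay at 4 of 21 UDP-glucuronosyltransferase TSSs, 1 of 14 crystallin TSSs and 0 of 17 type I interferon TSSs. All deposited H3K27me3 intervals were used here too, and only 2.81% of them passed the limits of the methods for that mark. Shares past those limits were not computed.

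The few carriers in such families included genes next to another TSS and near-identical copies. TAS1R1, the single taste receptor gene of 27 with an interval, lay 406 bp outside it and had the TSS of another gene 794 bp away. Of 94 keratin-associated protein genes 4 carried one, all in the KRTAP4 group of near-identical genes on chromosome 17, at 3.70 to 10.3-fold. Of 67 cancer-testis antigen genes 6 carried one, among them MAGEA2 and MAGEA2B, an inverted pair of near-identical copies at 12.2 and 12.1-fold, and MAGEB2 at 13.2-fold. HBA1, an alpha globin gene, had 4.69-fold over 799 bp, below the fold enrichment limit of the methods.

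Chemokines and interleukins showed a small set of carriers. CXCL16 (25.2-fold), CXCL1 (19.3-fold), CXCL3 (18.5-fold) and CXCL2 (18.5-fold) were the 4 of 45 chemokine genes with an interval, and CXCL1 to CXCL3 are neutrophil-attracting chemokines of epithelia. The TSS of another gene lay 95 bp from that of CXCL16 and 208 bp from that of CXCL2, so these intervals cannot be assigned to 1 gene. Of 38 interleukin genes 7 carried one, with IL12A (16.8-fold) and IL15 (14.8-fold, 1682 bp) first. Potassium channels carried one at 26 of 94, and glutamate and GABA receptor genes at 12 of 46, led by GRINA (53.4-fold), which is named for a receptor but known as a broadly expressed membrane protein. Cytochromes P450 carried one at 17 of 56, and both genes named there, CYP51A1 (2586 bp), the sterol demethylase, and CYP4V2 (35.4-fold), had another TSS within 127 bp.

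Markers of cell types were compared with the label of the line, colon-derived carcinoma. Of 14 colon epithelial markers 8 carried an interval: CDX2 (31.6-fold), EPCAM (30.4-fold), KRT19, CDH1 (25.1-fold), KRT18, KRT8, ELF3 (13.4-fold) and HNF4A (7.92-fold). This count lay near the background of 61.7% of all protein-coding genes and does not set the colon markers apart from coding genes in general. KRT20, VIL1, CDX1, CDH17, LGALS4 and GPA33 carried none, CDX1 with a CpG ratio of 0.90. No marker of leukocytes (6), endothelium (4), hepatocytes (4) or muscle (4) carried one. Of 6 fibroblast markers COL1A1 did, from an interval 299 bp outside its TSS at 9.21-fold, and of 4 neuronal markers GAD1 did, at 9.03-fold over 2123 bp. The TSS of another gene lay 124 bp from that of ELF3, 304 bp from that of GAD1 and 514 bp from that of HNF4A. The intervals at these markers cannot be assigned to a single gene. An interval at a gene is not a measure of its expression, and RNA was not analysed here.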

How the data were processed

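HCT116 chromatin was sheared with PIXUL and immunoprecipitated from single wells, and H3K4me3 was 1 of 7 libraries. According to the methods, the authors aligned reads to hg19 with BWA and ran MACS2 in its broad mode (cutoff 0.1). The submitters' processing notes name bcl2fastq 2.20.0.442, BWA 0.7.12, SAMtools 0.1.19 and MACS 1.4.2, so the version of the peak caller is uncertain. Each interval has a fold enrichment, a ratio over background that the authors deposited as written by the peak caller. The −log10 q-value deposited by the authors is also a value of the whole interval. Neither was rescaled, and the limits of the methods were an alternative and not a filter.

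Genes came from GENCODE 44 on hg19, with the TSS of the canonical transcript (19863 of 20144 coding genes) or otherwise the 5′ end of the gene, and duplicate pseudoautosomal copies on Y were left out. A gene carried an interval within 1000 bp of its TSS. A solitary gene had no TSS of another gene within 5000 bp, with 1 TSS per gene, and alternative transcript starts were not considered for this. CpG observed over expected was read from 250 bp before to 50 bp after the TSS in hg19, and CpG counts for reach over 1500 bp on each side. Overlaps between lists required 1 bp. The members and 38 gene lists were chosen with earlier results of these data known. Genes named are, per list, the carriers with the widest interval and with the highest fold enrichment, up to 4 exceptions in nearly complete (80% or more) or nearly empty (under 20%) lists, the first solitary gene per biotype, the 5 longest reaches on each side and all markers. PECAM1, planned as a marker, had no match among the coding genes used. Any further gene was chosen with its value known. A few genes and promoter sequences that the rule selects are not reported here.

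With 1 library per mark no test was made, and shares have 95% Wilson intervals that cover counting error only. A count of 0 allows a share of 3 divided by the number of genes. The code was tested on simulated data and checked with bedtools 2.31.1, and 0 genes differed. Software was Python 3.11.15, pandas 2.3.3, numpy 2.4.6, matplotlib 3.10.9, scipy 1.17.1, samtools 1.23.1 and pyfaidx 0.9.0.4. Alternatives were stricter limits, windows of 0 to 5000 bp, other definitions of the TSS, merging of intervals, a wider spacing of solitary genes and a wider CpG window.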

Additional observations from a re-analysis of the deposited data

How the results depend on the processing

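No paired analysis was possible because there was a single library for every mark and no test between groups. Of 92 values recomputed under other settings, 27 were counted as unchanged and 65 moved beyond the counting error of the value reported. Unchanged meant within that counting error, except for the number of intervals, which has none. That number was counted as unchanged within a factor of 1.5, and it fell from 16112 to 12749 and 12276 under the 2 limits below. With only the intervals past the q-value and fold enrichment limits of the methods (12749), the share of genes with an interval was 59.2% for coding genes, 19.4% for lncRNA genes and 2.49% for pseudogenes, and 82.0% of the intervals lay at a coding TSS. With the fold enrichment limit multiplied by 1.5 these were 58.4%, 18.8%, 2.22% and 84.0%. Under those 2 settings the median width at coding TSSs was 2003 and 2013 bp, the median downstream reach 1196 and 1202 bp, and 86.8% and 87.2% of solitary coding TSSs had the longer reach downstream. Among the CpG-richest promoters 89.4% carried an interval at the higher limit. With the TSS required inside the interval the shares were 60.0% of coding genes, 18.5% of lncRNA genes, 2.60% of pseudogenes and 66.4% of intervals at a coding TSS. With 500 bp, 20.7% of lncRNA genes and 3.26% of pseudogenes carried an interval. With 2000 bp the shares were 62.5%, 23.4%, 4.93% and 68.7%, and with 5000 bp 64.5%, 27.3%, 8.45% and 71.7%, with a median width of 1935 bp. Of the 3 biotypes run, pseudogenes alone moved by a factor above 1.5. Taking the 5′ end of the gene as its TSS gave 58.9% of coding genes, 85.4% of the CpG-richest promoters, a downstream reach of 1235 bp and 89.7% longer downstream. Counting any annotated transcript start gave 64.7% of coding genes.

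Merging intervals within 1000 bp changed nothing, since the smallest gap between neighbours was 1136 bp. Under both limits and the 4 windows, where all 3 were run, the share was highest in coding genes and lowest in pseudogenes, and the downstream reach was the longer under both limits, the 5′ end and a wider spacing of solitary genes. Outside the gene lists, the other values that moved by over 1.5 times were the share of intervals with no TSS, 10.6% and 9.11% under the limits, their median width, 1329 and 1426 bp, the share of solitary lncRNA genes, 3.47% and 3.19%, and that of the CpG-poorest promoters, 1.79% and 1.69% under the limits, 1.49% with the TSS inside, 5.11% with 2000 bp, 10.3% with 5000 bp and 7.54% with the 5′ end of the gene as TSS. For the gene lists, in settings chosen after seeing the data, 148 shares stayed within counting error and 4 did not, and 94 of the 101 named genes with an interval kept one at the strictest limit. Without replicates the spread between wells is unknown. The depth of the library, which the list does not give, limits how weak an interval could be called.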

Other observations

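The intervals with no TSS covered a range of heights. At the 736 of 3678 in the highest of 5 equal groups by fold enrichment, chosen by that value, the median fold enrichment was 16.2 and the median width 1606 bp (middle 50% 1242 to 1988 bp), against 498 bp in the second lowest group. Those at another annotated transcript start of a gene had a median width of 1195 bp, and 60.1% passed both limits of the methods, against 22.6% of those elsewhere inside a coding gene and 30.4% of those between genes. Away from any annotated start, the highest value was 41.5-fold over 1621 bp, between genes on hg19 at chr17:79454387-79456007, 23818 bp from the TSS of ACTG1, and overlapped intervals of H3K9Ac, H3K4me1 and CTCF. The next, 37.4-fold over 2425 bp on chromosome 3, lay 81071 bp from the TSS of RUBCN.

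Intervals that held several coding TSSs were wider, which the grouping itself favours, since a wider interval has room for more TSSs. The median was 1917 bp with 1 coding TSS inside, 2513 bp with 2 and 2674 bp with 3 or more, and H3K27me3 overlapped 4.49%, 0.836% and 0 of 99 of them, where a count of 0 in 99 has an upper Wilson bound of 3.74%. H3K36me3, a mark known from transcribed gene bodies, overlapped 14.2%, 25.9% and 33.3%. All deposited intervals of both marks were used. An overlap of 1 bp is also easier to reach for a wider interval, and the shares were not adjusted for width.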
